A study of Mus musculus with 16 samples.

Results

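Dbp, Tef, Hlf, Nfil3, Ciart, Bhlhe40, Bhlhe41, Usp2 and Wee1 are clock output genes and D-box factors, and their RNA levels were followed here. They were found by gene symbol in the deposited mouse expression table, which held all 9 members among 45777 listed genes, and all 9 were among the 19915 genes with enough reads to be tested. RNA sequencing of polyA RNA was done on ear skin of wild type (WT) C57BL/6 mice, in 2 groups of 3 libraries. One group was given an antibody that neutralizes the cytokine oncostatin M (anti-OSM), the other an antibody against the neutrophil surface protein Ly6G (anti-Ly6G). Both groups also received MC903 (calcipotriol, a vitamin D analogue that causes inflammation resembling atopic dermatitis) at 50 µM in 20 µL of ethanol on both ears every day for 10 days. Each mouse of the first group had 20 µg of anti-OSM intradermally on alternate days of that course. Each mouse of the second had 200 µg of anti-Ly6G intraperitoneally, once 2 days ahead of MC903 and again 1 day and 4 days after it. The labels used here give no age, no isotype antibody and no hour of collection for these groups. An hour that differed between the groups could not be told apart from the antibodies. The 10 other libraries of the series, of control ears and ears given MC903 without antibody, were not analysed here, so which group moved cannot be told.

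The circadian clock is a feedback loop in which the activators CLOCK and BMAL1 (encoded by Arntl) bind E-box elements, and the PER and CRY proteins they induce then repress them. Its rhythm passes to other genes largely through output transcription factors: DBP, TEF and HLF, the PAR bZIP factors, activate genes that carry a D-box element, and NFIL3 (also called E4BP4) represses through the same element. CIART, BHLHE40 and BHLHE41 repress transcription driven by CLOCK and BMAL1, while the ubiquitin protease USP2 and the kinase WEE1, which holds back entry into mitosis, are enzymes under clock control. In skin the clock is known to run in keratinocytes, hair follicles and dermal cells.

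Stretches before annotated starts of members whose start windows hold clock elements were read from the reference, because the E-box links these genes to CLOCK and BMAL1. Windows of 250 bases before to 50 bases after a gene's start, from RefSeq (GRCm38.p6, the assembly that mm10 names), were found for 7 of the 9 members, as 8 windows. Each was searched on both strands for CACGTG (E-box), CACGTT (E'-box), TTATGTAA or TTACGTAA (D-box) and TAGGTCA (core of the ROR element, bound by ROR activators and REV-ERB repressors). CACGTG reads the same on both strands, and no matches in the members overlapped. Capitals mark the match, and each stretch is written 5′ to 3′ on the gene's strand.
Ciart, chr3:95882258-95882356, minus strand: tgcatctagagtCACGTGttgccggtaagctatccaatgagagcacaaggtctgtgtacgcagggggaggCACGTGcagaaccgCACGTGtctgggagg
Bhlhe41, chr6:145865556-145865585, minus strand: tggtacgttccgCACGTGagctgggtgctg
Tef, outer start, chr15:81802534-81802563, plus strand: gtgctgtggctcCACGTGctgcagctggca
Tef, inner start, chr15:81811264-81811293, plus strand: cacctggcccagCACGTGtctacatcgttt
Nfil3, inner start, chr13:52981040-52981063, minus strand: ggcgctcggaacTGACCTActaac
The Ciart window held 3 E-boxes, with first bases 116, 58 and 44 bases before the start used, and 0.0883% of all 32851 windows held at least 3. Both Tef starts and Bhlhe41 held 1 each, so 4 of 8 member windows (50.0%) held CACGTG, as did 7.15% of all windows. Those 4 windows belong to 3 of the 7 genes. Of 20 windows of 12 core clock genes, 2 (10.0%) held CACGTG and 4 (20.0%) CACGTT. In Nfil3 the ROR element core lay on the strand opposite to the gene, so the capitals are its reverse complement, ending 6 bases before the start used. TAGGTCA was in 2.61% of all windows. The Nfil3 start used (52981039) is internal, since the gene reaches 52982878 in the same assembly. The Ciart start used (95882228) is internal too, since that gene reaches 95882257. In the GENCODE annotation the Nfil3, Bhlhe41 and outer Tef stretches lie in an exon of the same gene. The outer Tef stretch also lies in an exon of the gene model Gm17597, and the inner one in an intron of Tef. The Ciart stretch lies in no exon but within a transcript of the noncoding gene C920021L13Rik. None of the 8 member windows held CACGTT (4.68% of all windows) or the D-box letters (1.06%). The windows of Dbp, Hlf and Usp2 held none of these motifs, which says only that the letters are not in these windows. A match is a description of sequence and shows no binding.

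In these data the D-box activators and the E-box repressors Ciart and Bhlhe41 were higher with anti-OSM than with anti-Ly6G, while Nfil3 and Bhlhe40 did not pass the test. Of the 9 members, 6 rose (Dbp, Tef, Hlf, Ciart, Bhlhe41 and Wee1), 1 fell (Usp2) and 2 did not pass, with a median log2 fold change of 0.74. Among all 19915 genes tested, 12.1% were called, 5.81% higher and 6.27% lower, and the median was 0.01. Calls are from edgeR's quasi-likelihood test with Benjamini-Hochberg adjustment over all genes tested at a threshold of 0.05. Log2 fold changes are of anti-OSM over anti-Ly6G, and a gene is said to rise or fall with anti-OSM relative to anti-Ly6G. The 7 called members did not overlap between groups in CPM (counts scaled to a common library size), 6 being higher and 1 lower. Of all genes tested 35.0% did not overlap, 17.7% higher and 17.3% lower. In bulk skin, fewer cells of a type and less RNA per cell cannot be told apart.

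**Figure D1:**
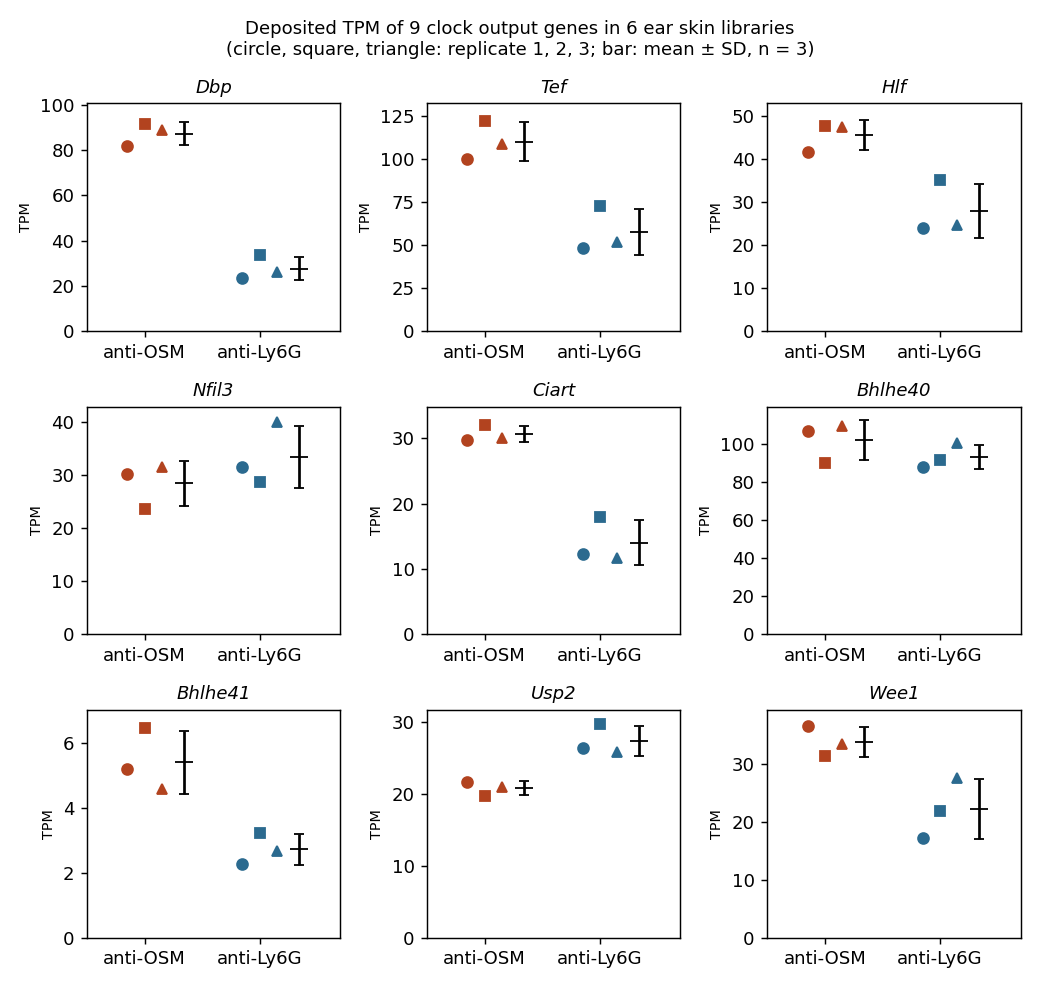
Deposited TPM (a transcript level scaled by transcript length and depth; vertical axis, from 0) of the 9 genes in each library. Circles, squares and triangles are replicates 1, 2 and 3, and bars give the mean and SD of 3 libraries. The groups are apart in Dbp, Tef, Hlf, Ciart, Bhlhe41, Usp2 and Wee1 and overlap in Nfil3 and Bhlhe40.

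Dbp, an activator of D-box genes and among the most strongly rhythmic transcripts of many tissues (gene ID 13170, chromosome 7, 45705100 to 45710203, plus strand), differed most. Its TPM was 81.7, 91.4 and 88.7 in anti-OSM replicates 1, 2 and 3, and 23.4, 33.5 and 26.0 in the anti-Ly6G replicates. The lowest anti-OSM library was thus well above the highest anti-Ly6G library. The log2 fold change was 1.67 (SE 0.12, 95% interval 1.41 to 1.94, adjusted p = 8.89e-04), a 3.19-fold difference, and it ranked 6 by p among all genes tested. The last 741 bases of Dbp are shared with Sphk2 on the opposite strand. The sources used here do not give whether counting used strand, and Sphk2 itself had -0.16 (adjusted p = 0.246).

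Tef, the thyrotroph embryonic factor (gene ID 21685, chromosome 15, 81802673 to 81826863, plus strand), was the most abundant of the 3 activators in each library. TPM was 99.9, 122 and 109 with anti-OSM against 48.2, 72.8 and 51.9 with anti-Ly6G. The groups were apart, and anti-Ly6G replicate 2 lay nearest to the anti-OSM libraries. Tef rose by 0.98 on the log2 scale (SE 0.14, interval 0.66 to 1.30, adjusted p = 0.00777), or 1.97-fold.

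Hlf, the hepatic leukemia factor (gene ID 217082, chromosome 11, 90336535 to 90390917, minus strand), had the smallest difference of the 3. Its TPM was 41.6, 47.7 and 47.5 with anti-OSM against 23.9, 35.1 and 24.6 with anti-Ly6G. Again anti-Ly6G replicate 2 was the highest of its group and still below the lowest anti-OSM library. The log2 fold change was 0.74 (SE 0.14, interval 0.42 to 1.06, adjusted p = 0.0161). Hlf did not pass without anti-OSM replicate 2 (0.71, adjusted p = 0.0579), anti-OSM replicate 3 (0.70, 0.0628) or anti-Ly6G replicate 1 (0.66, 0.0600). Over all genes, the share called in these fits was 4.79%, 3.45% and 5.30%, against 12.1% with all 6 libraries. The 95% intervals of Dbp (from 1.41) and Hlf (up to 1.06) did not meet, and that of Tef (0.66 to 1.30) lay below that of Dbp.

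The makeup of the activator pool differed along with its size. Dbp made up 36.6%, 35.0% and 36.2% of the summed TPM of Dbp, Tef and Hlf with anti-OSM against 24.5%, 23.7% and 25.4% with anti-Ly6G. The groups were apart, and the spread within each group was narrower than the gap between them. The share of Tef was 44.4% to 46.8% in the anti-OSM libraries against 50.5% to 51.5%, and that of Hlf 18.2% to 19.4% against 24.0% to 25.0%. The summed TPM was 243 ± 19.1 with anti-OSM and 113 ± 24.4 with anti-Ly6G (SD, n = 3).

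Nfil3, the repressor at the D-box (gene ID 18030, chromosome 13, 52967209 to 52982878, minus strand), did not pass. TPM was 30.2, 23.7 and 31.7 with anti-OSM against 31.6, 28.7 and 40.1 with anti-Ly6G. The groups overlapped, and the lowest library was anti-OSM replicate 2 and the highest anti-Ly6G replicate 3. The log2 fold change was -0.21 (SE 0.15, interval -0.54 to 0.12, adjusted p = 0.381), so an Nfil3 fall of up to 0.54 or a rise of up to 0.12 on the log2 scale lies inside the interval. Nfil3 is also a factor of natural killer and innate lymphoid cell development. Of 8 markers of those cells 0 were called by edgeR, DESeq2 or limma-voom. An unadjusted edgeR p under 0.05 was reached by 4, 3 of them higher. Among all 19915 genes tested, a p of 0.0432 by that test ranked 5452 and one of 0.0532 ranked 5921. Many genes thus passed at that threshold. The summed level of the 8 markers was 28.0 to 29.6 CPM in the anti-OSM libraries against 16.3 to 28.0.

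The ratio of summed Dbp, Tef and Hlf to Nfil3, both in TPM, sets the activators against the repressor of the same element in each library. It was 7.39, 11 and 7.74 in anti-OSM replicates 1, 2 and 3, and 3.02, 4.93 and 2.56 in the anti-Ly6G replicates. The groups did not overlap, and replicate 2 was the highest in both. On the log2 scale the mean ratio was 3.10 ± 0.32 against 1.75 ± 0.49 (SD, n = 3), a difference of 1.35. No p is given for it, since the genes were chosen with earlier results known.

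**Figure D2:**
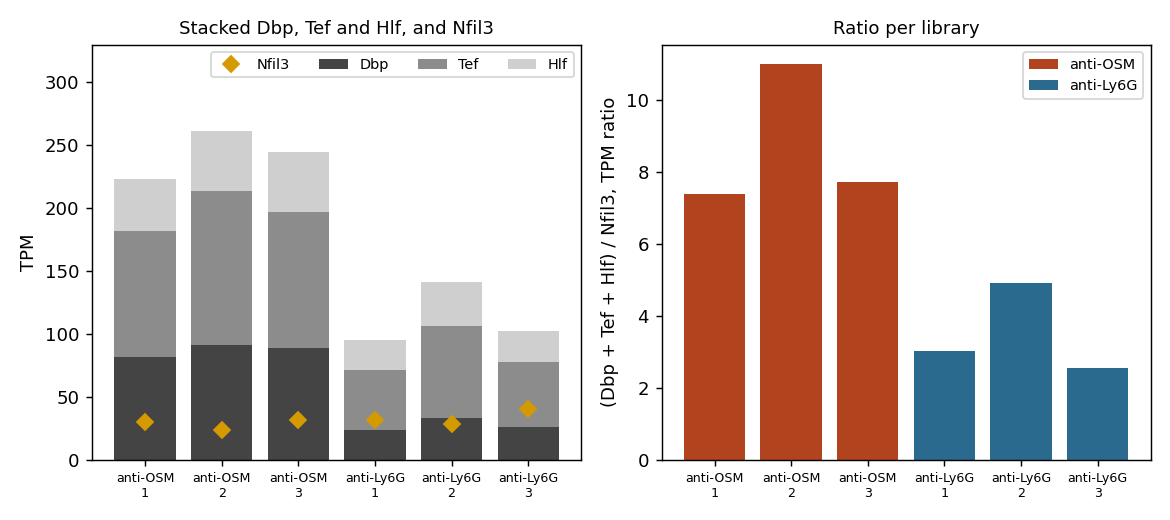
Left, TPM of Dbp, Tef and Hlf stacked (grey bars) with Nfil3 (diamonds) in each library; right, the ratio of the stacked sum to Nfil3. The anti-OSM ratios run from 7.39 to 11 and the anti-Ly6G ratios from 2.56 to 4.93, while the diamonds overlap between groups.

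Ciart, also known as Chrono (gene ID 229599, chromosome 3, 95878500 to 95882257, minus strand), whose window holds the E-box cluster printed above, was the member with the second largest rise. TPM was 29.8, 32.1 and 30.0 with anti-OSM against 12.3, 18.0 and 11.8 with anti-Ly6G. The anti-OSM libraries lay close together, and anti-Ly6G replicate 2 was the highest of its group. The log2 fold change was 1.13 (SE 0.15, interval 0.79 to 1.47, adjusted p = 0.00521), or 2.19-fold. The noncoding gene C920021L13Rik spans Ciart on the opposite strand and had 19 to 43 counts per library against 564 to 1436 for Ciart.

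The paralogs Bhlhe41 (DEC2) and Bhlhe40 (DEC1) differed in level and in their values between groups. Bhlhe41 (gene ID 79362, chromosome 6, 145858243 to 145865420, minus strand) had TPM of 5.18, 6.47 and 4.57 with anti-OSM against 2.27, 3.22 and 2.66 with anti-Ly6G, the lowest level of the 9 members in every library. All anti-OSM libraries were above all anti-Ly6G libraries. Bhlhe41 rose by 1.02 on the log2 scale (SE 0.15, interval 0.67 to 1.37, adjusted p = 0.00834).

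Bhlhe40 (gene ID 20893, chromosome 6, 108660629 to 108666925, plus strand), which many stimuli besides the clock induce, had TPM of 107, 89.8 and 109 with anti-OSM against 87.6, 91.5 and 100.1 with anti-Ly6G. The groups overlapped, with anti-OSM replicate 2 inside the anti-Ly6G range. Its log2 fold change was 0.16 (SE 0.09, interval -0.05 to 0.36, adjusted p = 0.286). The intervals of the paralogs (0.67 to 1.37 and -0.05 to 0.36) did not meet. Counting error was not the limit here, since Bhlhe40 had at least 7785 counts in each library, against 0 to 4 for 0610040F04Rik, which overlaps it on the opposite strand.

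Usp2, a ubiquitin protease gene (gene ID 53376, chromosome 9, 44067021 to 44095627, plus strand), was the member that fell. TPM was 21.6, 19.7 and 20.9 with anti-OSM against 26.3, 29.6 and 25.8 with anti-Ly6G. The groups did not overlap, and anti-Ly6G replicate 2 was the highest library. It fell by 0.36 on the log2 scale (SE 0.07, interval -0.52 to -0.20, adjusted p = 0.0174). The call was lost without any 1 of the anti-OSM libraries (adjusted p 0.0541 to 0.0671) or without anti-Ly6G replicate 1 (0.0528). Usp2 has transcripts from different starts, and the gene count does not separate them. The gene model Gm39325, on the opposite strand within Usp2, had 0 to 9 counts per library.

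Wee1, the kinase gene (gene ID 22390, chromosome 7, 110122059 to 110143299, plus strand), had TPM of 36.6, 31.5 and 33.6 with anti-OSM against 17.2, 21.9 and 27.6 with anti-Ly6G. The groups did not overlap, and anti-Ly6G replicate 3 came nearest to the anti-OSM libraries. Wee1 rose by 0.64 on the log2 scale (SE 0.14, interval 0.31 to 0.97, adjusted p = 0.0277). The call was lost without any library but anti-Ly6G replicate 3 (adjusted p 0.0580 to 0.0974), and without that replicate it was 0.81 (adjusted p = 0.00262). Of 12 genes that act with WEE1 at entry into mitosis, edgeR called 0 higher and 2 lower. Of all genes tested it called 5.81% higher and 6.27% lower. At an unadjusted edgeR p under 0.05 there were 0 higher and 5 lower, a threshold that many of all genes passed, as given with Nfil3. With DESeq2, which called 19.3% of all genes tested, 0 were higher and 3 lower. The 2 that edgeR called lower were Plk1, a mitotic kinase (-0.47, adjusted p = 0.0218), and Cdkn1a, a cyclin kinase inhibitor (-0.39, adjusted p = 0.0363). Cdk1, the kinase that WEE1 inhibits, had -0.14 (interval -0.40 to 0.13). With 1 anti-OSM library or anti-Ly6G replicate 1 left out, 0 or 1 of the 12 was lower. Plk1 did not pass when anti-OSM replicate 1, anti-OSM replicate 3 or anti-Ly6G replicate 1 was left out (adjusted p 0.0725 to 0.0830). Cdkn1a did not pass when any 1 anti-OSM library was left out (0.0848 to 0.122), and lay at the threshold when anti-Ly6G replicate 2 was.

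**Figure D3:**
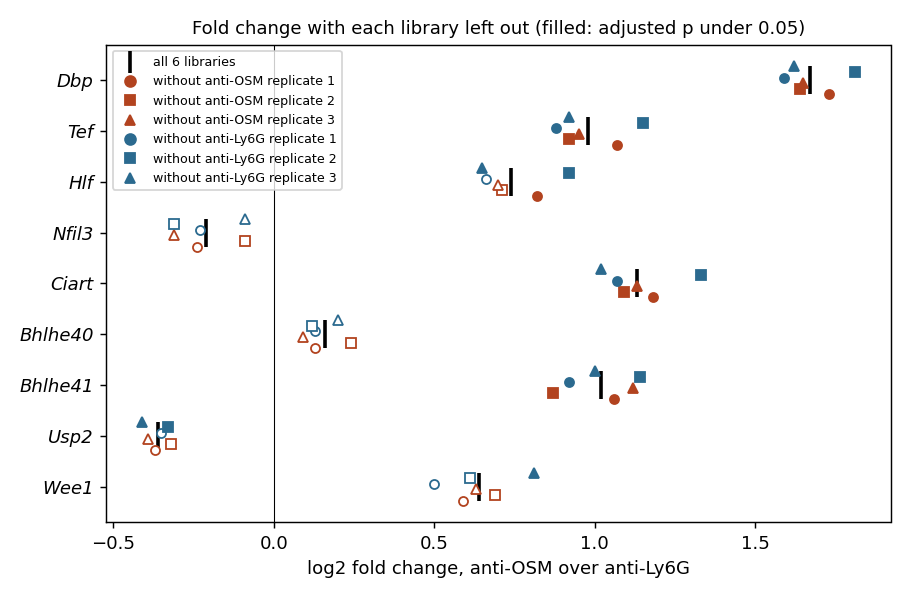
Log2 fold change (horizontal axis) of the 9 genes with all 6 libraries (black bars) and with each library left out (symbols; filled where the adjusted p is under 0.05). Dbp, Tef, Ciart and Bhlhe41 stay filled throughout, and Hlf, Usp2 and Wee1 do not.

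Dbp, Tef, Ciart and Bhlhe41 passed without each library in turn, with log2 fold changes of 1.59 to 1.81, 0.88 to 1.15, 1.02 to 1.33 and 0.87 to 1.14. The members called numbered 5 without anti-OSM replicate 1, 4 without anti-OSM replicate 2, 4 without anti-OSM replicate 3, 4 without anti-Ly6G replicate 1, 6 without anti-Ly6G replicate 2 and 7 without anti-Ly6G replicate 3. The share of all genes called in those fits was 3.49%, 4.79%, 3.45%, 5.30%, 6.50% and 14.8%, in the order anti-OSM replicates 1 to 3 and anti-Ly6G replicates 1 to 3.

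Ordered by TPM, the members stood differently in the groups. With anti-Ly6G, Bhlhe40 was highest (93.1 ± 6.4), then Tef (57.7 ± 13.3), Nfil3 (33.5 ± 5.92), Hlf (27.9 ± 6.30), Dbp (27.6 ± 5.20), Usp2 (27.2 ± 2.08), Wee1 (22.3 ± 5.21), Ciart (14.0 ± 3.45) and Bhlhe41 (2.72 ± 0.480; all SD, n = 3). Each neighbouring pair from Nfil3 down to Ciart overlapped in range, so their order is only partly set by these libraries. Ciart was still at place 8 in each anti-Ly6G library, and Nfil3 (from 28.7) lay above Wee1 (up to 27.6). With anti-OSM, Tef (110.3 ± 11.3), Bhlhe40 (102 ± 10.5) and Dbp (87.3 ± 5.03) led, with Bhlhe40 overlapping both Tef and Dbp but Tef above Dbp in each library, and Hlf (45.6 ± 3.47) stood apart below them. Wee1 (33.9 ± 2.55), Ciart (30.7 ± 1.27) and Nfil3 (28.5 ± 4.23) followed with overlapping ranges, above Usp2 (20.8 ± 0.960) and Bhlhe41 (5.41 ± 0.969). By library, Dbp was at places 3, 2 and 3 with anti-OSM and at 6, 4 and 5 in the anti-Ly6G replicates. Nfil3 was at places 6, 7 and 6 and at 3, 6 and 3.

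Inside each group the activators varied together. Anti-OSM replicate 1 was the lowest of its group in Dbp (-0.11), Tef (-0.18), Hlf (-0.15) and Ciart (-0.10), as log2 CPM minus the group mean. Anti-Ly6G replicate 2 was the highest of its group in the same 4 genes (0.25, 0.30, 0.32 and 0.34) and in Bhlhe41 (0.22). Bhlhe41 was lowest in replicate 3 with anti-OSM (-0.21), not in replicate 1. Nfil3 was lowest in replicate 2 of both groups (-0.26 with anti-OSM and -0.21 with anti-Ly6G). Wee1 also had another order, lowest in anti-Ly6G replicate 1 (-0.29) and highest in replicate 3 (0.32). These are descriptions of 3 libraries a group, which share their depth and scaling.

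**Figure D4:**
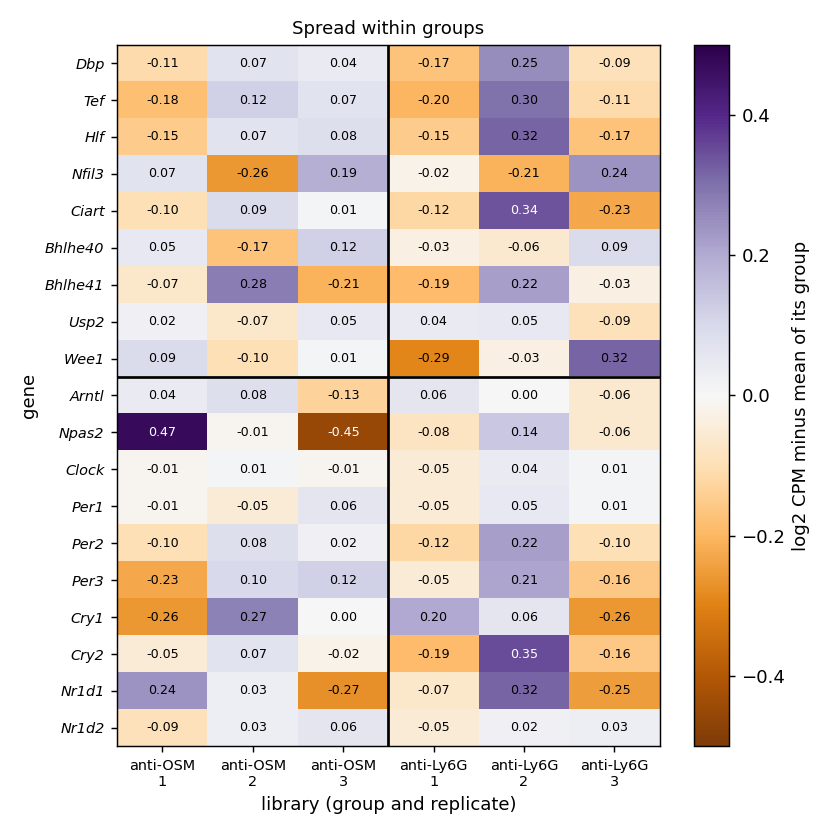
Log2 CPM minus the mean of its group (colour and printed value) for the 9 members (above the line) and 10 core clock genes in each library. In anti-Ly6G replicate 2, Dbp, Tef, Hlf, Ciart, Bhlhe41, Per2, Per3, Cry2 and Nr1d1 are 0.21 to 0.35 above their group mean.

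The core loop that drives these outputs was described with a list of 16 genes. Of these, 5 rose (Per1, Per2, Per3, Nr1d2 and Rora), 3 fell (Arntl, Npas2 and Clock) and 8 did not pass, beside 5.81% and 6.27% of all genes tested, and the list's median log2 fold change was 0.14. The repressor genes Per3 and Per1 had 1.17 (adjusted p = 0.00267) and 0.43 (adjusted p = 0.00824), next to Per2 at 1.41. Of the activators, Npas2, a paralog of Clock, fell by 2.02 on the log2 scale (SE 0.21, adjusted p = 0.00258), and its partner gene Arntl was at 13.9 ± 1.26 TPM against 30.1 ± 0.923 (SD, n = 3). Clock itself had -0.23 (adjusted p = 0.0406), and it did not pass in any of the 6 fits that left out 1 library (adjusted p 0.0589 to 0.132).

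Among the other members of the loop, Nr1d2, which encodes REV-ERB beta, rose by 0.80 (adjusted p = 0.00107), and Nr1d1, which encodes REV-ERB alpha, had -0.19 (interval -0.59 to 0.22, adjusted p = 0.518). Rora had 0.39 (adjusted p = 0.0448) and kept its call only without anti-Ly6G replicate 2; without each other library its adjusted p was 0.0764 to 0.145. Cry1 had 0.11 (interval -0.25 to 0.47) and Cry2 0.37 (interval 0.05 to 0.70, adjusted p = 0.126). Cry2 passed without anti-Ly6G replicate 2 (0.57, adjusted p = 0.00891), the library in which it was 0.35 above its group mean.

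**Figure D5:**
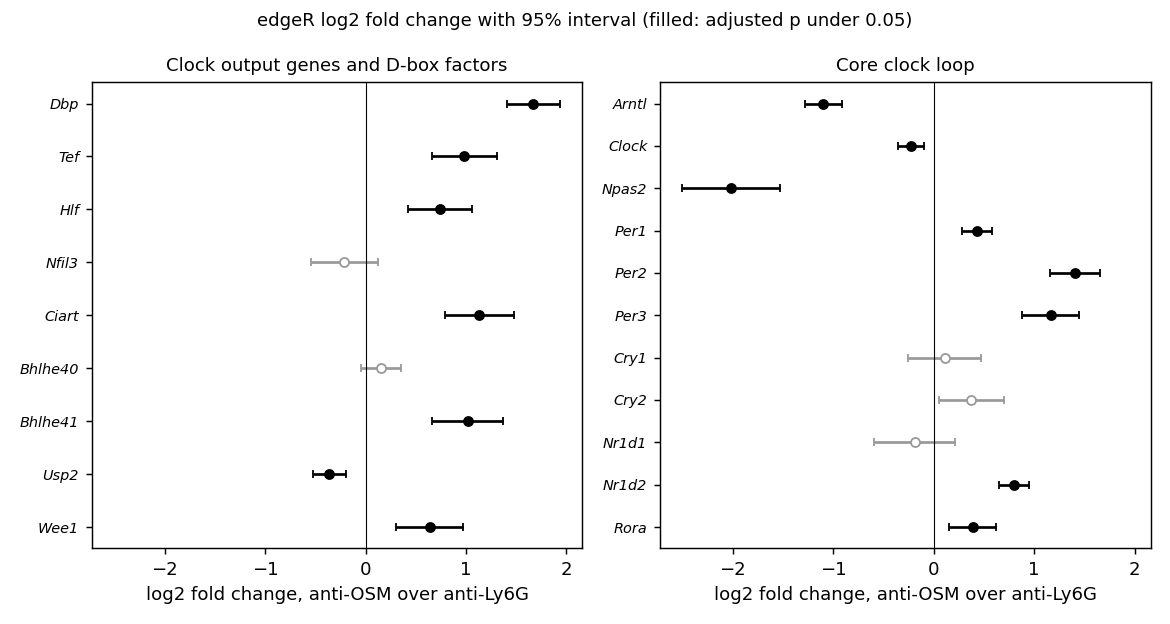
Log2 fold change of anti-OSM over anti-Ly6G with its 95% interval for the 9 members (left) and 11 core clock genes (right); filled symbols have an adjusted p under 0.05. Per2 and Per3 lie beside Dbp and Ciart on the right of 0, and Npas2 and Arntl on the left.

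Of 10 genes linked to PAR bZIP factors in other tissues, 8 were tested, 1 rose and 1 fell, with a median log2 fold change of 0.13. Of all genes tested 5.81% rose and 6.27% fell, for this list and the next. Pdxk, which makes the active form of vitamin B6, had 0.36 (adjusted p = 0.0259), and Alas1, which starts heme synthesis, had -0.46 (adjusted p = 0.00407). The Pdxk call was lost without any 1 anti-OSM library or anti-Ly6G replicate 1 (adjusted p 0.0644 to 0.105), and Alas1 passed without each library. Nr1i3 and Cyp7a1, known from liver, had 0 counts in all 6 libraries, where the floor of 3 counts is 0.0468 to 0.0575 CPM. Of 8 other rhythmic genes of many tissues 2 rose and 0 fell: Tspan4, a tetraspanin (0.76, adjusted p = 0.00292), and Tsc22d3, a glucocorticoid target (0.37, adjusted p = 0.0392). The Tsc22d3 call was lost without any library but anti-Ly6G replicate 3 (adjusted p 0.0612 to 0.128). Fkbp5, also a glucocorticoid target, had -0.09 (interval -0.51 to 0.32).

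The genes whose profile over the 6 libraries was nearest to a called member were then listed, by the root mean square difference of centred log2 CPM among 10850 genes with a mean of at least 10 CPM. For Dbp they were Per2 (0.14), Per3 (0.27) and Mid1 (0.30), of which Mid1 is uncertain because near-identical copies can share its reads. Ciart had Per3 (0.10), Skint5 (0.14) and Per2 (0.15), and Tef had Skint5 (0.09), Abca6 (0.11) and Per3 (0.12). Bhlhe41 had Skint5 (0.15), Abca6 (0.17) and Skint7 (0.18), of which the Skint genes encode immunoglobulin superfamily proteins of skin and thymus epithelium. Core clock genes were thus the nearest to Dbp and to Ciart, and Per3 came last of the 3 nearest to Tef. None of the nearest 3 of Bhlhe41, Hlf, Usp2 or Wee1 was a core clock gene. Hlf lay nearest to Ell3 (0.07), Mycl (0.08) and Foxq1 (0.08), and those of Usp2 included AW209491 and Nup160 (each 0.04). Wee1 lay nearest to Cyp4v3 (0.04), Dock2, a regulator of leukocyte migration (0.04), and Il1rl1, the IL-33 receptor gene (0.05). The measure is a description over 6 libraries in 2 groups, and genes with a like difference between groups are near by construction.

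Markers of other cell types of the ear also differed between the groups, where 5.81% of all genes tested were called higher and 6.27% lower. Total counts were 52163179 to 64122588 per library. Skin markers were abundant, with 8 keratinocyte markers summing to 21779 to 26098 CPM in the anti-OSM libraries against 25375 to 32174 (0 higher, 1 lower). Skeletal muscle markers had 8 of 10 lower, at 3574 to 4196 CPM against 5505 to 5851, and cartilage markers 6 of 7 tested lower, at 235 to 246 against 364 to 412. Fibroblast markers had 3 of 6 higher, at 9280 to 9629 CPM against 5560 to 8061. Mast cell markers had 5 of 6 higher (551 to 615 CPM against 324 to 401), macrophage markers 3 of 6 (1597 to 2123 against 968 to 1467), eosinophil markers 2 of 5 tested (12.5 to 29.8 against 3.60 to 6.75) and T cell markers 2 of 7 (67.7 to 77.8 against 39.3 to 56.8). Adipocyte markers had 0 higher and 1 lower of 7 (344 to 397 CPM against 355 to 400), and neutrophil markers 0 called of 5 tested by edgeR (155 to 178 against 99.8 to 168). Of those 5, 2 were higher at an unadjusted edgeR p under 0.05, 1 with DESeq2 and 0 with limma-voom. Many of all genes passed that unadjusted threshold, as given with Nfil3, and DESeq2 called 19.3% of all genes tested. No marker of these lists was at 0 in all 6 libraries. In the anti-Ly6G libraries the order of Wee1 was also that of the macrophage markers (968, 993 and 1467 CPM in replicates 1, 2 and 3) and of the mast cell markers (324, 358 and 401 CPM). With anti-OSM, Wee1 was at 59.5, 52.2 and 56.1 CPM. That was the order of the macrophage markers (2123, 1597 and 2090) but not of the mast cell markers (609, 551 and 615). With 3 libraries a group a shared order is common and says little. The part of these cell types in the members' differences was not tested. With scaling factors computed without the 10 muscle genes, the same 7 members passed.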

How the data were processed

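PolyA RNA of mouse ear skin was sequenced, and the deposited table lists read counts, FPKM and TPM per gene on mm10. The authors' counts are whole reads per gene, not normalized, per the file headers and the values. The deposited FPKM and TPM values were scaled by the authors for length and depth, and FPKM was used only to check the order of levels. The submitters' processing notes name Trimmomatic 0.38, HISAT2 2.1.0, StringTie 2.1.3b and edgeR 3.40.2, and the sources used here do not give whether counting used strand. Total counts were 52163179 to 64122588 per library, and 16043 genes had none. The labels do not say that replicates are separate mice, so p-values measure only the spread between these libraries.

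Counts were tested in R 4.3.3 with edgeR 4.0.16 (filterByExpr, TMM scaling, robust quasi-likelihood fit, 2-sided, Benjamini-Hochberg over 19915 genes, threshold 0.05), which was first tested on simulated data. Alternatives were other scalings and filters, a fit that was not robust, DESeq2 1.42.0, limma 3.58.1 (voom, and log2 of TPM plus 1 or 0.1), a block on replicate number, and leaving out each library. Exact permutation of 3 against 3 libraries cannot go below 0.1 and was not used. The members and lists were chosen with earlier results of these data known. The genes named are all 9 members, the called genes of each list up to 6 by smallest p, 9 core clock genes whatever their p, and the 3 nearest profiles of each called member. Gene models and members were left out of the profiles. Cdk1, Fkbp5, Nr1i3 and Cyp7a1 fall outside this rule and were named after their values were seen. Some items of the lists and profiles are not reported here.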

Additional observations from a re-analysis of the deposited data

How the results depend on the processing

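The 6 higher and 1 lower members kept their calls under all 12 alternatives that used all 6 libraries. With limma on log2(TPM + 1) and log2(TPM + 0.1), 735 and 732 genes were higher, against 1157 with edgeR. With DESeq2, 1655 genes were higher and 1746 lower (19.3% called, against 12.1%), and core clock genes stood at 6 and 4. Leaving out each library gave 240 to 1545 genes higher and 420 to 1447 lower, 4 to 6 members higher and 0 to 1 lower, and 4 to 6 core clock genes higher and 2 to 3 lower. The log2 difference of the activator to Nfil3 ratio was then 1.15 to 1.62. No called value changed sign under any alternative run. With a replicate block, 1325 genes were higher and 1275 lower, members stood at 6 and 1, and core clock genes at 6 and 2. Under the block Clock (adjusted p = 0.0608) and Rora (0.0615) lost their calls and Cry2 (0.0383) gained one. Same-numbered libraries correlated at 0.01, 0.04 and 0.12 in their deviations from the group means. Libraries of unlike number correlated at -0.12 to 0.08. With 3 libraries a group, these values cannot tell whether libraries of the same number share a block. With 3 libraries a group the intervals are wide, and the hour of collection and the antibodies cannot be told apart.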
